A study of Mus musculus with 6 samples.

Results

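The methionine cycle and transsulfuration genes encode the enzymes that make, use and regenerate S-adenosylmethionine (SAM), the main methyl donor of the cell, and that turn its by-product homocysteine into cysteine. The members were all array probes whose symbol in the platform annotation was Mat1a, Mat2a, Mat2b, Ahcy, Gnmt, Bhmt, Bhmt2, Cbs, Cth or Pemt. Of these 10 genes, 9 had a named probe, out of 19057 genes so named, and they had 18 of the 45281 probes on each array. No probe carried the symbol Mat2a in that annotation, so Mat2a was not analysed here. Of the 18 probes, 15 passed the detection filter, which asked for a detection p-value under 0.05 on 3 or more of the 6 arrays, and these 15 covered all 9 genes.

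RNA came from whole liver of C57Bl/6N mice aged 8 weeks. The 3 tunicamycin mice were injected into the abdomen with tunicamycin at 2.5 mg/kg, dissolved in dimethylsulphoxide and diluted with PBS that held 100 mM glucose, and the 3 vehicle mice received an equal volume of vehicle. Livers were taken 12 hours later, and each was read on an Illumina bead array, which measures the brightness of labelled RNA copies bound to probe-bearing beads. Tunicamycin stops N-linked glycosylation of new proteins and thereby causes stress of the endoplasmic reticulum (ER), and the question here is how the liver's methionine metabolism genes respond to it at the transcript level. The labels give neither the sex of the mice nor whether any replicates share a cage, chip or day, so the p-values reflect array-to-array spread alone, which may be technical in part.

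In the cycle, methionine adenosyltransferase joins methionine to ATP to make SAM, methyltransferases pass the methyl group on and leave S-adenosylhomocysteine (SAH), and SAH is split to homocysteine. Homocysteine is either methylated again, with betaine or methyl-folate as the donor, or combined with serine and cleaved to cysteine by transsulfuration. The liver is the main site of this metabolism, and the betaine route is found mainly in liver and kidney.

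After tunicamycin, the transcripts of Bhmt and its paralog Bhmt2, of 2 SAM-dependent methyltransferases and of both transsulfuration enzymes were lower. For making SAM and splitting SAH, the brightest probes had log2 fold changes between -0.24 and 0.13 that did not pass the test, while 1 dimmer Mat2b probe rose. By the brightest probe of each gene, Bhmt, Bhmt2, Pemt, Gnmt, Cth and Cbs fell, Mat1a, Ahcy and Mat2b did not pass, and 0 of 9 rose (limma, also 0 at an unadjusted p under 0.05). Among all 9332 named genes tested, 64.3% were called in either direction, 33.1% lower and 31.2% higher, so 6 of 9 called in all is near the background, and 6 of 9 called lower stands above it, a reading from 9 genes with no test. The median log2 fold change of the 9 genes was -0.62, against -0.02 for all named genes. The 3 tunicamycin arrays lay wholly below the 3 vehicle arrays for 7 of the 9 genes, where this held for 35.4% of named genes, and 68.6% of named genes had groups wholly apart in either direction. Because the samples were bulk liver, fewer hepatocytes and less RNA per hepatocyte cannot be told apart.

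**Figure D1:**
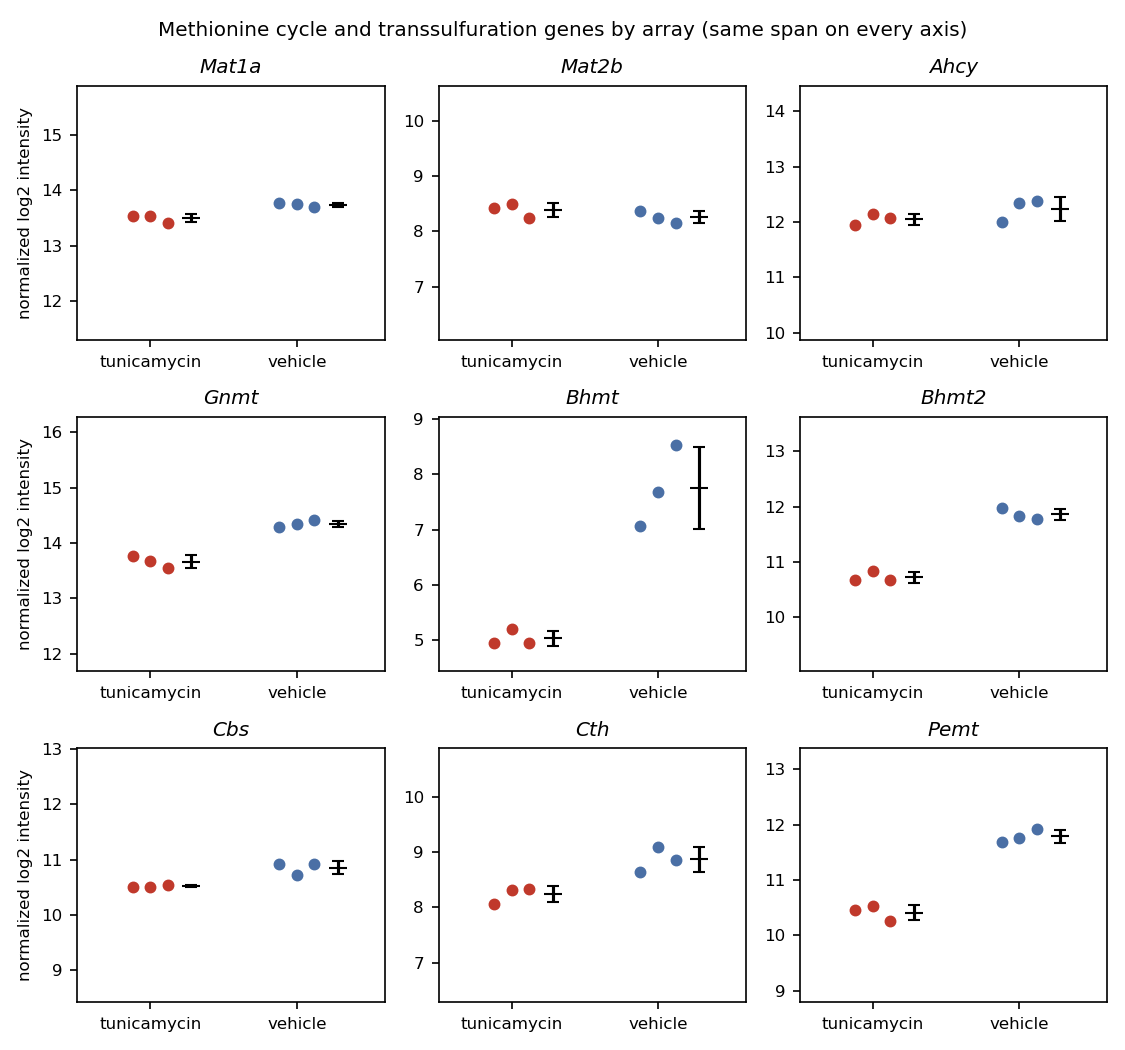
Normalized log2 intensity of each gene's brightest probe on every array (y axes of equal span), with tunicamycin arrays in red on the left and vehicle arrays in blue on the right, and the mean ± SD of 3 arrays beside them in black. The tunicamycin points lie wholly below the vehicle points for Mat1a, Gnmt, Bhmt, Bhmt2, Cbs, Cth and Pemt, and the groups overlap for Ahcy and Mat2b.

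The liver response to the drug was present on every tunicamycin array. Ddit3, which encodes the stress factor CHOP, had log2 intensities of 13.74, 13.91 and 13.77 in tunicamycin livers, against 5.61, 5.71 and 5.76 in vehicle livers, and its log2 fold change of 8.11 was 6.83 without background correction. Trib3, Asns, Atf4 and Hspa5, a set of ER stress and amino acid response genes, rose too (limma, adjusted p between 8.82e-09 and 4.35e-07). Trib3 rose 28.8-fold and Atf4 3.69-fold. Asns had a log2 fold change of 3.51, or 2.45 without background correction. Hspa5, detected on 1 of 3 vehicle arrays, had one of 2.26, which was 0.92 without background correction, 1.32 with an offset of 50 and 3.09 with the second deposited table. Between 15503 and 16603 probes were detected on an array, and the arrays correlated at r = 0.989 to 0.994 within a group and r = 0.887 to 0.901 between groups, across kept probes, which are not independent replicates. Of 8 hepatocyte markers 6 were tested, of which 2 fell and 0 rose, where 33.1% of all named genes were lower and 31.2% higher. Their summed linear intensity was 78670 to 82793 in tunicamycin livers and 91365 to 99769 in vehicle livers. The named probes of Alb and Tat, which are hepatocyte markers too, were detected on 2 and 0 of the 6 arrays.

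For other cell types, Kupffer and myeloid markers fell in 6 of 7 and summed to 648 to 1691 in tunicamycin livers and 2355 to 3521 in vehicle livers, with Cd5l undetected on every array. Endothelial markers fell in 3 of 6 (2810 to 2999 in tunicamycin livers, 3259 to 3810 in vehicle livers) and stellate and fibroblast markers in 2 of 5 (3343 to 3536 in tunicamycin livers, 3859 to 4043 in vehicle livers). Erythroid markers fell in 2 of 3, summing to 6492 to 10279 in tunicamycin livers and 10516 to 14250 in vehicle livers. Of the exocrine pancreas markers, Prss2 and Cpa1 were not detected on any array, and of the 3 tested 1 rose and 1 fell. The sum of these 3 was 7348 to 9442 in tunicamycin livers and 5516 to 6022 in vehicle livers. It was mostly the signal of Amy2a5, which rose 1.52-fold (mean log2 intensity 12.95 against 12.35), while Cela1 fell 2.71-fold and Ctrb1 was not called. Of 2 cholangiocyte markers 0 were called by limma, 0 also at an unadjusted p under 0.05 (188 to 277 in tunicamycin livers, 222 to 326 in vehicle livers), 1 of 4 neutrophil markers rose (180 to 283 in tunicamycin livers, 122 to 227 in vehicle livers), and no lymphocyte marker passed the detection filter. These counts are of few markers, and among all named genes 33.1% were lower and 31.2% higher, so 2 of 5 lower is near the background. The part of these other cell types in the values below was not tested.

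Both genes for the BHMT family, which remethylates homocysteine without folate, fell. Bhmt, which encodes betaine-homocysteine methyltransferase, had log2 intensities of 4.95, 5.20 and 4.96 in tunicamycin livers, against 7.06, 7.68 and 8.52 in vehicle livers. The tunicamycin arrays lay close together and far below the vehicle arrays, which were themselves spread over more than a log2 unit. By its only named probe, Bhmt fell 6.58-fold (log2 fold change -2.72 ± 0.29, SE, adjusted p = 1.24e-05). Of all tested probes, 1.14% had a fold change as low or lower. Its signal before any correction was 99.3, 110.6 and 112.3 in tunicamycin livers and 216.6, 262.3 and 406.1 in vehicle livers, while the lowest signal of any probe was 76.9, so the size depends on how background is treated. The log2 fold change was -1.46 without background correction (adjusted p = 0.00142) and -1.92 with an offset of 50 (adjusted p = 0.000275).

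Bhmt2, its neighbour and paralog, encodes an enzyme that uses S-methylmethionine rather than betaine as the methyl donor for homocysteine. Its log2 intensities were 10.67, 10.84 and 10.67 in tunicamycin livers, against 11.97, 11.83 and 11.78 in vehicle livers. The arrays of each group lay within 0.2 log2 units of each other and the groups were well apart. Bhmt2 fell 2.19-fold (log2 fold change -1.13 ± 0.11, adjusted p = 7.27e-06). The difference of Bhmt2 minus Bhmt within an array was 5.69 ± 0.04 in tunicamycin livers and 4.10 ± 0.83 in vehicle livers (SD, n = 3), a difference of 1.58 log2 units that did not pass the test (exact permutation test, two-sided p = 0.1, the smallest that 3 against 3 arrays allow, and 0.15 adjusted over 3 pairs). Without background correction this difference was 0.36 (exact permutation p = 0.5). Probes differ in brightness for the same amount of RNA, so within-array differences between genes do not rank transcripts by level.

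The paralogs lie side by side on chromosome 13, with 0 protein-coding genes starting between them in the RefSeq annotation. Their promoter windows, 250 bases before to 50 after the start site, are printed 5′ to 3′ from RefSeq (GRCm38.p6) because this pair of neighbours both fell. Capitals mark CG pairs. The Bhmt window is chr13:93637709-93638008 and the Bhmt2 window is chr13:93674253-93674552, both on the minus strand.
Bhmt: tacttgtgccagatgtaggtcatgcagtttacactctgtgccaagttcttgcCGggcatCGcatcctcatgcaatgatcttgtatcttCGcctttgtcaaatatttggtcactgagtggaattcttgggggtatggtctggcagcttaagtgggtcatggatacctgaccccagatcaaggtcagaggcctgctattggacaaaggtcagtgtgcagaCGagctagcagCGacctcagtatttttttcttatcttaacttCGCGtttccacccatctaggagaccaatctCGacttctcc
Bhmt2: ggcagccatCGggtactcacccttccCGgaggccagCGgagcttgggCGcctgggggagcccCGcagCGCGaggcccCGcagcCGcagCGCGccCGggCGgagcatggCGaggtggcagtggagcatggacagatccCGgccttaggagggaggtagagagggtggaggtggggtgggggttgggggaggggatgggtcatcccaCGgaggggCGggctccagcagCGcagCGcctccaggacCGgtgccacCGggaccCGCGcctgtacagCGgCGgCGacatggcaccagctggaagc
The Bhmt window held 8 CG pairs with a GC content of 48.0%, and the Bhmt2 window held 26 with 73.7%. The median over all 32851 promoter windows was 7 CG pairs.

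The promoter table held windows for 8 of the 10 genes, 9 windows in all, and these were searched on both strands for elements of stress-responsive promoters. TGATGNAA, the core of the C/EBP-ATF element that ATF4 can bind, was in 0 of the 9 windows and in 3.97% of all windows. The full ER stress element was in 0 of 9 and in 0.119% of all, and TGACGTGG, the unfolded protein response element, in 0 of 9 and in 0.676% of all. The E-box CACGTG, which shares the letters ACGTG with the unfolded protein response element, was in 1 of 9, the Cbs window with its first base at position -229 from the start site, and in 7.15% of all. A missing match says only that these letters are not in these windows.

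The SAM-dependent methyltransferases Pemt and Gnmt both fell. Pemt, which methylates phosphatidylethanolamine to phosphatidylcholine, had log2 intensities of 10.45, 10.52 and 10.26 in tunicamycin livers, against 11.69, 11.76 and 11.92 in vehicle livers. The groups were separated by more than 1 log2 unit on every array. Pemt fell 2.60-fold (log2 fold change -1.38 ± 0.12, adjusted p = 2.65e-06), and 6.40% of tested probes had a fold change as low or lower.

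Gnmt, glycine N-methyltransferase, an abundant liver enzyme that consumes excess SAM, had 3 tested probes, and all 3 were lower. Its brightest probe had log2 intensities of 13.77, 13.67 and 13.55 in tunicamycin livers, against 14.30, 14.35 and 14.41 in vehicle livers. The groups did not overlap, and Gnmt fell 1.61-fold by this probe (log2 fold change -0.69 ± 0.11, adjusted p = 0.000256). The raw signal of this probe was 11323.1 to 13127.2 in tunicamycin livers and 22171.2 to 22877.6 in vehicle livers, where the brightest probe of an array read 26236.5 to 29644.5. The second probe fell by 0.96 ± 0.13 on the log2 scale (SE, adjusted p = 6.73e-05), and the third probe, designed on the clone AK082459, fell by 0.74 ± 0.20 (SE, adjusted p = 0.00788). On the third probe, vehicle replicate 1 stood apart at 10.79, against 10.05 and 9.90 on the other vehicle arrays and 9.60, 9.52 and 9.39 on the tunicamycin arrays.

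The change of Gnmt, by its brightest probe, and that of Pemt were set against each other within arrays. The second Gnmt probe, with a larger log2 fold change of -0.96, was not used here. The difference of Gnmt minus Pemt within an array was 3.32, 3.15 and 3.29 in tunicamycin livers and 2.61, 2.58 and 2.49 in vehicle livers. The change in this difference was 0.69 log2 units, and the groups did not overlap (exact permutation p = 0.1, the smallest possible, and 0.15 adjusted over 3 pairs).

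Both transsulfuration enzymes fell. Cth, cystathionine gamma-lyase, which releases cysteine from cystathionine, had log2 intensities of 8.07, 8.32 and 8.33 in tunicamycin livers, against 8.64, 9.09 and 8.86 in vehicle livers. Cth fell 1.54-fold (log2 fold change -0.62 ± 0.14, adjusted p = 0.00256). The groups were apart after normalization but overlapped in raw signal, at 301.3, 400.9 and 494.9 in tunicamycin livers and 472.9, 569.6 and 502.1 in vehicle livers. A second Cth probe was not detected on any array.

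Cbs, cystathionine beta-synthase, which joins homocysteine to serine, had log2 intensities of 10.51, 10.51 and 10.54 in tunicamycin livers, against 10.93, 10.72 and 10.91 in vehicle livers. The tunicamycin arrays were nearly equal and all lay below the vehicle arrays after normalization. In raw signal the groups overlapped, at 1266.9, 1527.1 and 1904 in tunicamycin livers and 2041.1, 1710.7 and 2050.5 in vehicle livers. Cbs fell 1.26-fold (log2 fold change -0.33 ± 0.11, adjusted p = 0.0194), and its second probe fell 1.33-fold (log2 fold change -0.41 ± 0.10, adjusted p = 0.00498). The call of the brighter Cbs probe ended with 1 median per array (adjusted p = 0.123), without tunicamycin replicate 1 (0.0545) and without vehicle replicate 3 (0.0674). The difference of Cth minus Cbs within an array was -2.28 ± 0.14 in tunicamycin livers and -1.99 ± 0.34 in vehicle livers (SD, n = 3), a change of -0.29 that lay within the spread of the vehicle arrays (exact permutation p = 0.3).

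By their brightest probes, the genes for SAM synthesis did not pass the test. Mat1a, the catalytic subunit of the methionine adenosyltransferases of hepatocytes, had log2 intensities of 13.54, 13.53 and 13.41 in tunicamycin livers, against 13.76, 13.75 and 13.70 in vehicle livers. All tunicamycin arrays lay below all vehicle arrays, yet Mat1a did not pass the threshold, with a log2 fold change of -0.24 (95% confidence interval -0.47 to -0.01, adjusted p = 0.0632). It passed under 6 of 16 processing alternatives, with an adjusted p between 0.00598 and 0.165 over all of them.

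Mat2b, the regulatory subunit that pairs with the MAT2A catalytic subunit, differed by probe. Its brightest probe had log2 intensities of 8.42, 8.50 and 8.24 in tunicamycin livers, against 8.37, 8.24 and 8.15 in vehicle livers. These groups overlapped, with a log2 fold change of 0.13 (95% confidence interval -0.12 to 0.39, adjusted p = 0.343). A second, dimmer probe for the same RefSeq transcript rose 1.75-fold (log2 fold change 0.80 ± 0.12, adjusted p = 0.000214), with values of 7.38, 7.28 and 6.98 in tunicamycin livers and 6.43, 6.41 and 6.39 in vehicle livers. The third probe, designed on the clone AK075947, gave a difference of 0.35 on the log2 scale (adjusted p = 0.0526), and the fourth was not detected on any array.

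The distance between the second and the first Mat2b probe within an array was -1.04, -1.22 and -1.26 in tunicamycin livers and -1.94, -1.83 and -1.76 in vehicle livers. The change of 0.67 log2 units separated the groups fully, with an exact permutation p of 0.1, the smallest possible, and 0.15 adjusted over 6 such probe comparisons. When a gene's probes were averaged, Mat2b was called higher at 0.43 (adjusted p = 0.01), so the direction is positive throughout but the call depends on the probe. These data do not settle whether Mat2b transcripts as a whole changed.

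Ahcy, which splits SAH to homocysteine and adenosine, had log2 intensities of 11.95, 12.14 and 12.07 in tunicamycin livers, against 11.99, 12.34 and 12.38 in vehicle livers. The groups overlapped through vehicle replicate 1, and the log2 fold change of -0.19 (95% confidence interval -0.47 to 0.10) did not pass the threshold (adjusted p = 0.24). Without vehicle replicate 1 the log2 fold change was -0.30 (adjusted p = 0.0443). The second Ahcy probe gave -0.14 (95% confidence interval -0.44 to 0.17), also with overlapping groups, and its dimmest probe was not detected on any array.

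Over all 15 tested probes of these genes, 9 fell, 1 rose and 5 did not pass, where 29.8% of the 16559 tested probes fell, 31.8% rose and 61.5% were called in all. In the order of their fold changes, Bhmt was followed by Pemt, Bhmt2, Gnmt, Cth, Cbs, Mat1a, Ahcy and Mat2b. The 95% confidence interval of Bhmt, -3.35 to -2.08, did not overlap that of Pemt, -1.64 to -1.12. The distance between Bhmt and Pemt depended on how background was treated. They were at -1.46 and -1.33 without background correction, and at -1.92 and -1.36 with an offset of 50. Each later pair of neighbours in the order had overlapping intervals, such as Bhmt2 (-1.38 to -0.89) with Gnmt (-0.93 to -0.45).

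**Figure D2:**
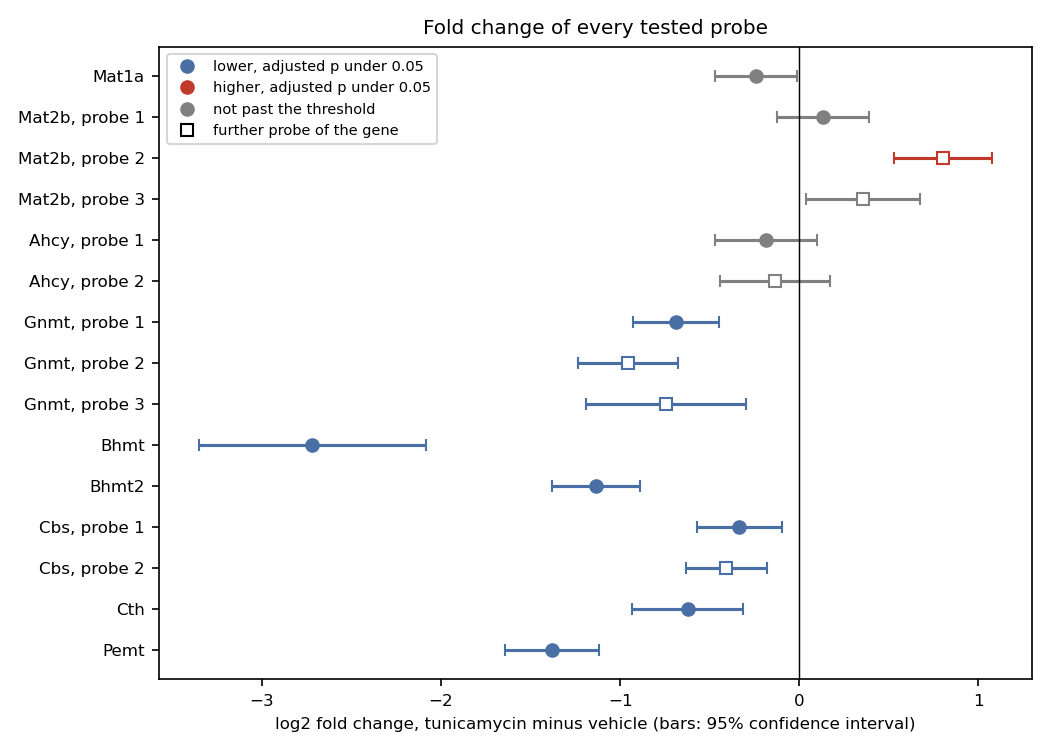
Log2 fold change (x axis, tunicamycin minus vehicle) of the 15 tested probes, with 95% confidence intervals as bars, filled circles for the brightest probe of a gene and open squares for its further probes. The 9 probes that fell belong to Gnmt, Bhmt, Bhmt2, Cbs, Cth and Pemt, and the second Mat2b probe, at 0.80, is the one that rose.

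Most tested genes that make betaine or handle the methyl groups it leaves were lower. Of 8 genes for remethylation and for betaine and choline oxidation, 5 were tested, of which 4 fell and 1 rose, against 33.1% lower and 31.2% higher among all named genes, with a median log2 fold change of -0.97. Pipox, which oxidizes sarcosine and pipecolate, had log2 intensities of 7.09, 7.16 and 6.97 in tunicamycin livers, against 9.40, 9.22 and 9.37 in vehicle livers, and fell 4.77-fold (adjusted p = 4.98e-08). Dmgdh, which demethylates the dimethylglycine that Bhmt produces, fell 2.28-fold (log2 fold change -1.19 ± 0.12, or -0.58 without background correction). Chdh, which starts the oxidation of choline to betaine, fell 1.96-fold, and Sardh, which demethylates the sarcosine made by Gnmt, fell 1.84-fold. Without background correction the log2 fold change of Chdh went from -0.97 to -0.63 and that of Sardh from -0.88 to -0.62. Mtrr, which reactivates methionine synthase, was the one that rose, but its probe was not well above background in vehicle livers, so that it was at least 1.18-fold higher (adjusted p = 0.00855), a call that ended without background correction and with 1 median per array. Mtr, methionine synthase itself, and Aldh7a1, which completes the oxidation of choline to betaine, had no probe that passed the detection filter, so Chdh was the only betaine-making gene tested.

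Other SAM-dependent methyltransferases of small molecules went both ways. Of 8 listed, 6 were tested, of which 3 fell and 1 rose, with a median log2 fold change of -0.95. That 4 of 6 were called is near the 64.3% called among all named genes. Inmt, which methylates indolamines, fell 3.49-fold by its brightest probe and 5.68-fold by its other probe. Tpmt, which methylates thiopurines, fell 3.33-fold by its brightest probe and 1.28-fold by its dimmest of 3, and Gamt, which makes creatine, fell 2.96-fold. Gamt had log2 intensities of 9.53, 9.56 and 9.15 in tunicamycin livers, against 11.19, 10.94 and 10.81 in vehicle livers. Nnmt, which methylates nicotinamide, rose 1.38-fold (log2 fold change 0.46 ± 0.14, adjusted p = 0.0141), with values of 12.48, 12.34 and 12.48 in tunicamycin livers and 11.98, 12.22 and 11.70 in vehicle livers. The Nnmt call ended with 1 median per array, without a detection filter and without vehicle replicate 3, with an adjusted p of up to 0.108.

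Genes for the removal of SAH and adenosine and for SAM transport had a median near that of all genes. Of 6 listed, 5 were tested, of which 2 fell and 1 rose, against 33.1% lower and 31.2% higher among all named genes. Their median log2 fold change was -0.09. Slc25a26, the mitochondrial SAM carrier, fell 1.32-fold, and Adk, adenosine kinase, fell 1.31-fold, 1.39-fold and 1.83-fold by its 3 probes, brightest to dimmest. Ahcyl1, a relative of Ahcy, rose 1.25-fold by 1 of its 2 probes (adjusted p = 0.0367). By the brightest probes, these 3 calls became 0 without a detection filter, without tunicamycin replicate 3 and without vehicle replicate 2 (limma, with 3, 2 and 1 genes at an unadjusted p under 0.05), and 1 without vehicle replicate 3. Methionine salvage, which recycles the by-product of polyamine synthesis to methionine, had 4 of 5 genes tested, with a median of 0.01. Of these 1 rose, where 31.2% of all named genes were higher. Enoph1 rose 1.79-fold (adjusted p = 0.00024). Its log2 fold change of 0.84 was 0.33 without background correction and 1.1 with the second deposited table. Apip, Mtap and Adi1 had log2 fold changes between -0.21 and 0.19 that did not pass.

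Most tested genes that handle cysteine, taurine and sulfide fell. Of 10 genes of cysteine oxidation, taurine and sulfide handling, 8 were tested, of which 7 fell and 1 rose, with a median log2 fold change of -1.17, against 33.1% lower and 31.2% higher among all named genes. Csad, which decarboxylates cysteine sulfinate on the way to taurine, had log2 intensities of 8.32, 8.53 and 8.17 in tunicamycin livers, against 11.21, 11.14 and 11.25 in vehicle livers, and fell 7.26-fold (adjusted p = 1.87e-08). Ethe1 and Sqor, mitochondrial enzymes of sulfide oxidation, fell 5.41-fold and 2.73-fold, where the log2 fold change of Sqor, -1.45, was -0.82 without background correction. Cdo1, which oxidizes cysteine, fell only 1.23-fold (adjusted p = 0.0391). The Cdo1 call ended in 7 of 16 alternatives, among them leaving out vehicle replicate 3 (adjusted p = 0.151). Ado, which oxidizes cysteamine, was the one that rose, with a log2 fold change of 0.55 that was 0.16 without background correction and 1.08 with the second deposited table.

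Of 9 glutathione genes, 6 were tested, of which 3 rose and 2 fell, against 31.2% higher and 33.1% lower among all named genes. Their median log2 fold change was 0.42. Chac1, which breaks down glutathione and is a known target of ATF4, had log2 intensities of 10.37, 10.86 and 9.46 in tunicamycin livers, against 7.07, 7.03 and 8.20 in vehicle livers. It rose 6.95-fold (log2 fold change 2.80 ± 0.36, adjusted p = 6.08e-05), with replicate 3 of either group lying nearest to the other group. Gss, glutathione synthetase, rose by all 4 of its probes, by between 1.46-fold and 2.12-fold, whereas Gclm, the modifier subunit of the rate-limiting ligase, fell 1.69-fold. Oplah, which returns 5-oxoproline to glutamate, fell 2.37-fold. Gclc, the catalytic subunit of that ligase, was detected on 1 of 3 tunicamycin arrays and 2 of 3 vehicle arrays and differed by -0.12 on the log2 scale (adjusted p = 0.425).

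**Figure D3:**
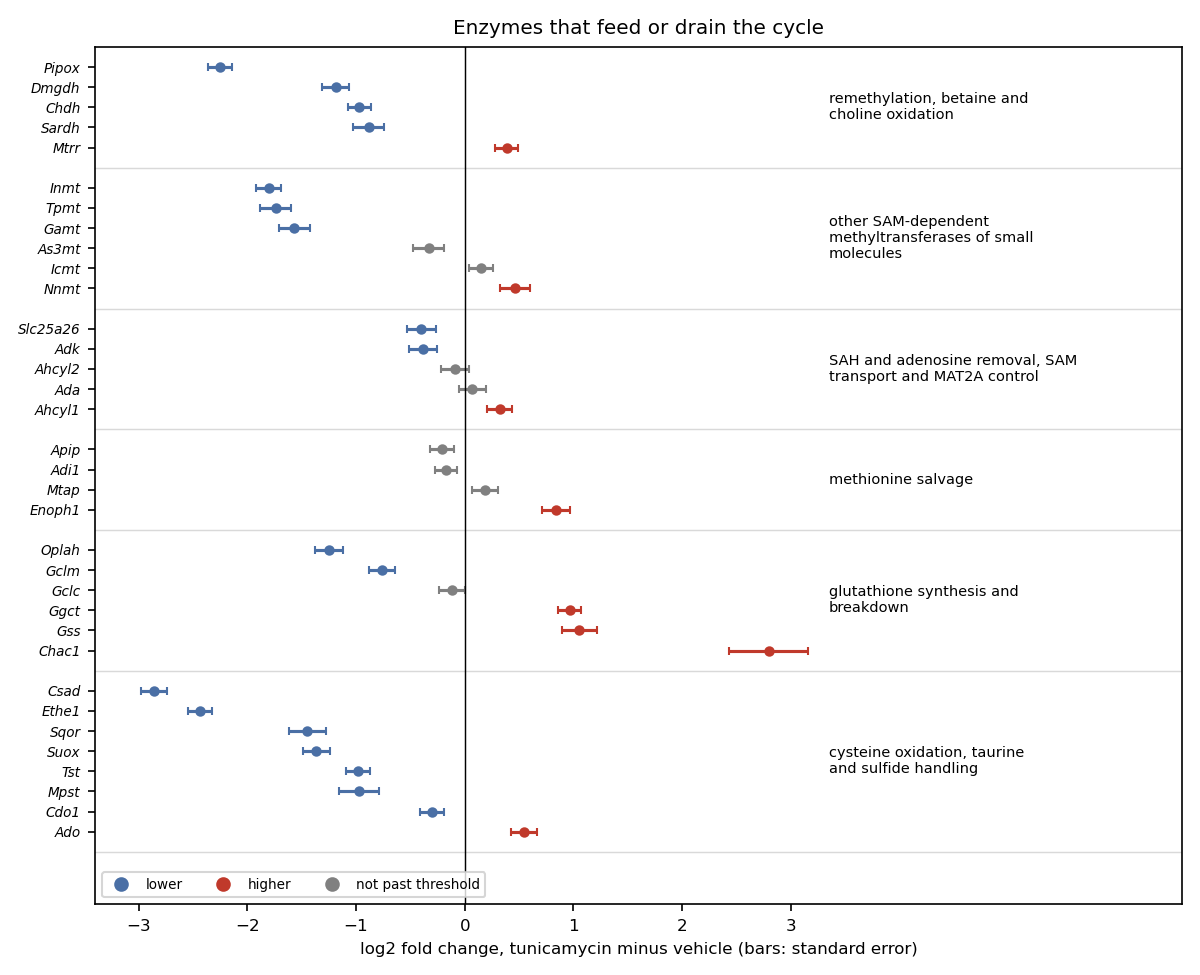
Log2 fold change (x axis, tunicamycin minus vehicle, bars are standard errors) of the tested genes that feed or drain the cycle, grouped by list, with genes that fell in blue, genes that rose in red and genes past no threshold in grey. Of 8 genes of cysteine oxidation, taurine and sulfide handling 7 are blue, and among 6 glutathione genes 3 are red, with Chac1 farthest right at 2.80. Among all named genes 33.1% were lower and 31.2% higher.

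The direction of the fold change was kept for all 9 genes of the cycle under each of the 16 processing alternatives run. Those that changed only the detection filter, the variance model, the choice of tested probes or the replicate block could not move it, and altered only the p-values. Pemt ranged from -1.44 to -1.27, Bhmt2 from -1.20 to -1.05, Gnmt from -0.86 to -0.62 and Cth from -0.74 to -0.48 on the log2 scale, each past the threshold every time. Bhmt ranged most widely, from -3.08 to -1.46, and was also called under all 16.

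**Figure D4:**
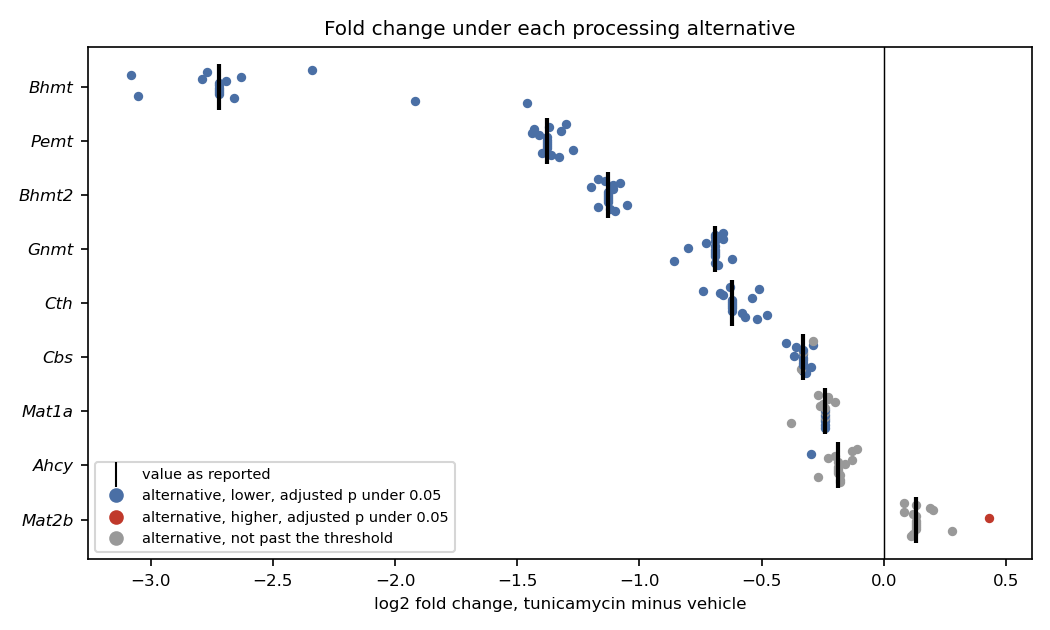
Log2 fold change (x axis, tunicamycin minus vehicle) of the 9 genes under each of 16 processing alternatives (dots, vertically spread for legibility) and as reported (black bars), with dots coloured by whether they passed the threshold. Bhmt, Pemt, Bhmt2, Gnmt and Cth are blue throughout, and Bhmt has the widest range, -3.08 to -1.46.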

How the data were processed

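RNA of 6 mouse livers (3 tunicamycin, 3 vehicle, grouped by title) was read on bead arrays. The deposited table gives an average bead signal, an intensity per probe that was neither background-subtracted nor normalized, as read from the values, and a deposited detection p-value beside it, per the file headers. A second deposited table gives intensity that, from its values, was background-subtracted and quantile-normalized. It served as an alternative. The scanner software is not given in the sources used here.

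Values were corrected by normexp in limma 3.58.1 (R 4.3.3), with its background taken from the detection columns, followed by addition of 16, quantile normalization and log2, a scale that understates changes of dim probes. The 16559 probes detected (p-value under 0.05) on 3 or more arrays were tested probe by probe with lmFit and eBayes and Benjamini-Hochberg adjustment (threshold 0.05, two-sided). Each gene's representative was its brightest kept probe by mean log2 value. Precision is limited by having 3 arrays a group. Gene names came from the platform annotation, updated by Entrez ID against RefSeq (GRCm38.p6). There were 34885 probes with 1 symbol and 18 with several. Probes of paralogs such as Bhmt and Bhmt2 can bind more than 1 transcript. On simulated data with 15548 kept probes, 59, 62 and 63 probes were changed 4-fold, 2-fold and 1.5-fold. Of these, 91.5%, 51.6% and 3.17% were recovered, with 1.12% of calls false. In the real data 61.5% of tested probes were called, which loosens the adjusted threshold, so these rates do not carry over.

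A probe detected on no array of a group has its fold given as "at least", each dim array taking its own value or that of the dimmest detected probe, whichever was greater. Within-array differences between paired genes were tested by exact permutation. The pairs that involve Mat2a had no value. The rule for named genes takes all 10 genes with every kept probe, up to 3 genes with the largest called change from each list, and 5 index genes. Other genes were named after their values were seen. Members, lists and tests were chosen with earlier results of these data known.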

Additional observations from a re-analysis of the deposited data

How the results depend on the processing

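Of 144 fold changes of the 9 genes under 16 alternatives, 133 kept their side of the threshold, 3 lost a call, 8 gained one and 0 changed sign. The sign could not change under alternatives that altered only the filter, the variance model, the tested probes or the block. The number of genes called was 5 to 8, and that of probes called 7291 to 10249. Among the 621 fold changes of listed genes, 2 changed sign, Ada at -0.01 with the second deposited table and Ahcyl2 at 0.02 without vehicle replicate 2 (range without 1 replicate -0.21 to 0.02), both far from the threshold. The called genes for SAH and adenosine removal and SAM transport numbered 0 without a detection filter and 0 to 3 without 1 replicate (limma, 3 and 1 to 3 at an unadjusted p under 0.05). Methionine salvage had 2 called genes without background correction, and likewise 2 when probes of a gene were averaged. Alternatives for the lists, and those that left out a replicate for the within-array differences, were chosen after seeing the data. The within-array differences kept their signs, and the cause of the moved values was not tested. Whether the replicate numbers pair the arrays is not given by the labels, and these values cannot settle it. Deviations of same-numbered arrays correlated at 0.13, 0.053 and 0.019, and a replicate block gave 10249 called probes and 6 called genes. Signal over background limits, among others, Bhmt, Hspa5, Dmgdh, Sqor, Ado, Mtrr, Gclc, Ada, Enoph1 and Mpst. The log2 fold change of Mpst, -0.97, was -0.33 without background correction and -1.55 with the second deposited table.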

Other observations

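The spread of Bhmt among the vehicle livers was unusual for this set of genes. Its SD over the tunicamycin arrays was 0.14 log2 units and over the vehicle arrays 0.73, and 0.405% of all tested probes had a vehicle SD as high. For its tunicamycin SD this share was 44%, and its signal there was near background, where the log2 scale used compresses differences. The brightest probes of the other 8 genes had vehicle SDs between 0.035 and 0.23. Without vehicle replicate 3, the brightest for Bhmt, the log2 fold change was -2.34 (adjusted p = 3.89e-06), and without vehicle replicate 1 it was -3.08 (adjusted p = 1.75e-06). Bhmt2, the neighbouring gene, had a tunicamycin SD of 0.099 and a vehicle SD of 0.10, and its vehicle arrays did not follow the order of the Bhmt values.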
